A study of Mus musculus with 13 samples.

Results

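Translation of 9 genes of the IRE1–XBP1 and ATF6 arms of the unfolded protein response (UPR) was followed in ribosome footprint libraries of mouse fibroblasts. They were Ern1 (IRE1α), Xbp1, Atf6, Atf6b, the site-1 and site-2 proteases Mbtps1 and Mbtps2, and the related factors Creb3, Creb3l1 and Creb3l2. The genes were chosen by symbol, and all 9 were found among the 22406 symbols of both tables. Mouse embryonic fibroblasts (MEFs) that were PERK WT or PERK −/− were left untreated (control) or given 1 μM thapsigargin (Tg) for 1, 2, 5 or 8 h. The sources used here do not say how many embryos or clones the MEFs came from. NIH3T3 cells, a mouse fibroblast line labelled WT, were left untreated or treated with 0.2 μM Tg for 2 h or 7 h. Tg blocks the SERCA pump, which fills the ER with calcium. The study asked which gene expression responses to ER stress need PERK, the kinase that slows translation under this stress. There were 13 libraries without replicates, 1 for each condition, so biological spread is unknown, no test was made, and genotype and cell source cannot be told apart. Dose and times differed between MEFs and NIH3T3 cells, whose values are given side by side.

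The UPR has 3 sensors in the ER membrane, namely PERK, IRE1 and ATF6. IRE1 is a kinase and nuclease that cuts a short intron out of Xbp1 mRNA in the cytosol. The cut shifts the reading frame, and the longer protein made from the spliced mRNA is a potent transcription factor for ER folding, secretion and degradation genes. ATF6 is a membrane-bound transcription factor that travels to the Golgi under stress, where the site-1 and then the site-2 protease release its cytosolic domain. The proteases also cut the sterol-regulated SREBP factors and the CREB3 family, whose members are activated in a like manner. These genes make the sensors and factors themselves. Their footprints report the share of a library's translation that fell on each, and not the amount made or whether the protein was active.

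The intron lies in exon 4 of Xbp1 on chromosome 11 of mm10 (chr11:5524279-5524304, plus strand) and is 26 nt long. The frame reads 804 nt (267 codons) with it and 1116 nt (371 codons) without it. The stretch is shown because the lengths of these 2 frames are used below. Capitals mark the removed bases, and the spliced line is the same stretch after removal.
Xbp1 unspliced: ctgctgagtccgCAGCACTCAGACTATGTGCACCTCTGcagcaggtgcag
Xbp1 spliced: ctgctgagtccgcagcaggtgcag
Both cut sites lie in loops of the form CNGCNGN, here CCGCAGC and CTGCAGC. Xbp1 spans chr11:5520659-5525893 on the plus strand, and Ern1 lies on the minus strand at chr11:106394650-106487852. Atf6 lies at chr1:170704674-170867771 (minus strand) and Atf6b at chr17:34647146-34655074 (plus strand). Mbtps1 lies at chr8:119508156-119558735 and Mbtps2 at chrX:157535371-157598715, both on the minus strand. Creb3 lies at chr4:43562332-43567060 (plus strand), Creb3l1 at chr2:91982328-92024502 and Creb3l2 at chr6:37327255-37442146 (both minus strand).

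The total expected counts were 2525029 to 14799515 in the 10 MEF libraries and 2569965 to 11121006 in the 3 NIH3T3 libraries. Levels are given as TPM, a share of the library per coding length, so genes can be ranked within a library. A change of TPM is a gain or loss relative to the other genes of that library, and a global drop of translation would not show in it. From polysome profiles the study reported such a drop with Tg in WT MEFs and NIH3T3 cells. In PERK −/− MEFs it reported only a slight one, at 8 h. Induced and repressed thus refer to shares of a library and not to amounts made. In such bulk samples, fewer cells of a type and less RNA per cell cannot be told apart. Footprints rise with both mRNA level and translation, which these libraries cannot tell apart. Of 9 fibroblast markers, 9 had a mean of at least 2 TPM in MEFs and 8 in NIH3T3 cells, with sums of 4826 TPM or more in every library. The MEF mean was taken over both genotypes. Pdgfra passed through the PERK −/− libraries, with 4.72 to 10.81 TPM there and 0.27 to 2.79 TPM in the WT libraries. The levels of the markers moved with Tg. In PERK −/− MEFs at 2 h, 5 of 9 were repressed at least 2-fold, against 5.78% of expressed genes (defined below). Their median log2 fold change (LFC) was −1.35, beside −0.11 over expressed genes. In NIH3T3 cells at 7 h, 4 of 8 were repressed, against 8.06%, with a median of −0.92 beside 0. The WT medians of the markers ran from −0.31 to −0.13. The part of this shift in the results at those times was not tested. The epithelial, haematopoietic and endothelial markers summed to at most 17.71, 11.04 and 5.14 TPM, and for each cell source 1 gene of each list had a mean of at least 2 TPM (Krt18, Cd14 and Kdr in MEFs, Krt8, Cd14 and Cdh5 in NIH3T3 cells). Kdr had 1.4 to 2.74 TPM in the WT and 2.41 to 5.14 TPM in the PERK −/− libraries. Eif2ak3, which encodes PERK, had 14.4 to 33.3 counts scaled to library total (CPM) in WT MEFs and 7.64 to 19.1 in PERK −/− MEFs, lower at each of the 5 matched times. In TPM, which divides by the assigned length, it was higher in PERK −/− than in WT MEFs in the control (11.2 against 6.03), at 5 h (14.9 against 14.0) and by 8 h (17.2 against 15.7), so the level of Eif2ak3 does not by itself separate the genotypes. The gene tables do not show where along Eif2ak3 these footprints lay. The coding length that RSEM had assigned to them was shorter in the 5 PERK −/− libraries (891 to 1377 nt) than in the 5 WT libraries (1641 to 3345 nt).

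Expressed genes were those with a mean of at least 2 TPM in a table, 10432 in MEFs and 10117 in NIH3T3 cells, and all 9 genes passed in both tables. TPM values under 4 were raised to 4, and a gene was called induced or repressed when it changed at least 2-fold against its own control. In PERK WT MEFs, 4 of the 9 genes were called induced at some time and 0 repressed. They were Xbp1 and Creb3 at all 4 times, and Atf6 and Creb3l2 at 5 h. At 1 h and 2 h, 2 of the 9 genes were induced, against 4.33% and 5.66% of expressed genes. At 5 h and 8 h, 4 and 2 of the 9 genes were induced, against 5.86% and 6.45%. The repressed share of expressed genes was 2.29%, 4.01%, 3.55% and 3.87% at the 4 times, and 0 of the 9 genes were among them. The median log2 fold change (LFC) of the 9 genes was 0.11, 0.40, 0.60 and 0.63, beside medians over expressed genes of 0 at 1 h and 2 h, 0.00 at 5 h and 0.01 at 8 h.

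In PERK −/− MEFs, 2 of the 9 genes were called induced at some time, namely Xbp1 at all 4 times and Creb3l2 at 5 h and 8 h. Early, 1 of 9 genes was induced, against 0.719% of expressed genes at 1 h and 0.623% at 2 h. Late, 2 of 9 were induced, against 3.26% at 5 h and 3.28% at 8 h. Atf6b at 2 h was the repressed gene, 1 of 9 against 5.78% of expressed genes, while 0 of 9 were repressed at 1 h (3.38%), 5 h (4.77%) and 8 h (2.73%). The median LFC of the 9 genes was −0.10, −0.20, 0.28 and 0.56, beside −0.06, −0.11, 0 and 0.04 over expressed genes. Scaling with TMM factors, which are set by the bulk of genes as DESeq2 size factors are, moved the median of expressed genes at 2 h to 0.03, and with TMM or DESeq2 scaling Atf6b stayed under 2-fold (LFC −0.95 and −0.98). Without treatment, 0 of the 9 genes differed at least 2-fold between the genotypes in either direction, beside 6.04% of expressed genes higher and 1.97% lower in PERK −/− than in WT MEFs. The baseline LFCs of the 9 genes ran from −0.50 for Creb3l1 to 0.35 for Creb3.

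**Figure D1:**
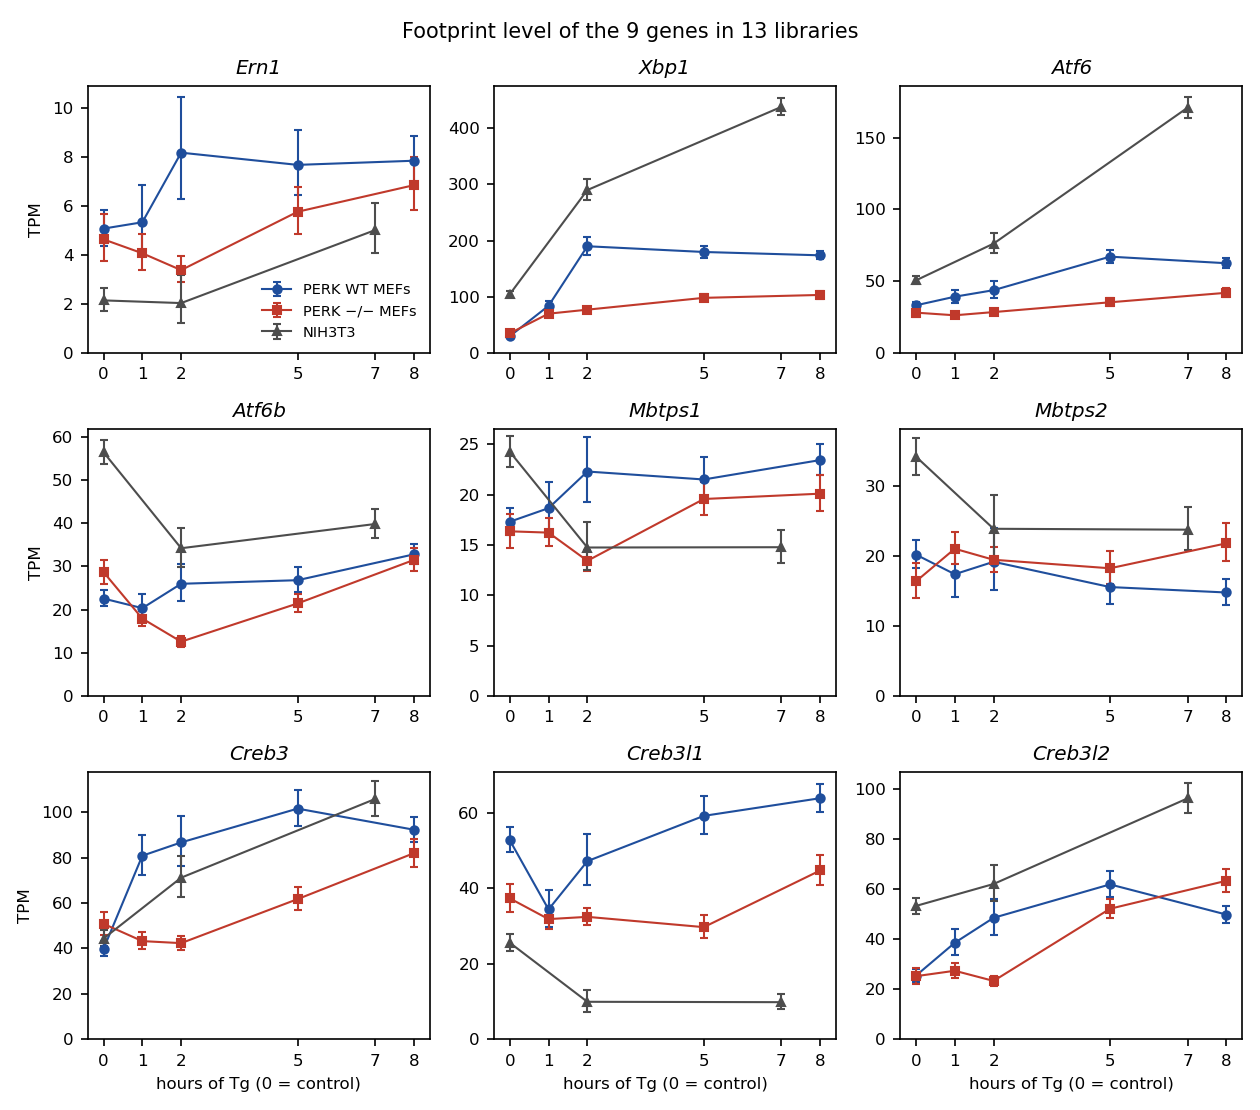
TPM of the 9 genes (y axes, each from 0) against hours of Tg (x axes, 0 is the control) in PERK WT MEFs (blue circles), PERK −/− MEFs (red squares) and NIH3T3 cells (grey triangles), 1 library per point. Bars are 95% Poisson intervals of the count; Xbp1 in WT MEFs climbed from 29.2 to 189.8 TPM by 2 h, while Ern1 stayed under 9 TPM in every library.

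Xbp1 had the largest increase of the 9 genes in each of the 8 MEF libraries with Tg. In WT MEFs it went from 29.2 TPM in the control to 83.5, 189.8, 179.6 and 174 TPM after 1, 2, 5 and 8 h. It was thus induced within the first hour, at its highest at 2 h and level afterwards. These were fold changes of 2.86, 6.50, 6.15 and 5.95, and 20 expressed genes had a larger LFC at 2 h. The 95% interval of the count ratio at 2 h, which covers counting error only, was an LFC of 2.55 to 2.93.

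In PERK −/− MEFs Xbp1 started at a similar level and rose less. It went from 34.5 TPM to 69.5, 76.7, 97.7 and 103 TPM after the same times. The 4 treated libraries stood above their control, and the fold change at 8 h was 2.99. The step from 5 h to 8 h was within counting error, with an LFC of 0.03 in counts per library total (−0.11 to 0.17). At 1 h the fold change was 2.02, at the limit for a call, and a pseudocount of 1 TPM brought the LFC of Xbp1 to 0.99. Although the fold was smaller, few genes changed more in these cells, with 36 expressed genes above Xbp1 at 2 h and 51 at 8 h. The difference of the LFC between the genotypes, PERK −/− minus WT, was −0.48 at 1 h, with a 95% interval of −0.78 to −0.19. It widened to −1.48 (−1.76 to −1.21) at 2 h. The late differences were −1.08 and −1.01 (5 and 8 h), and both intervals lay below 0. These intervals and those below come from expected counts per library total and cover counting error only.

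NIH3T3 cells had more Xbp1 before treatment, 104 TPM, and 290.05 and 438 TPM after 2 h and 7 h of Tg. Xbp1 had the highest TPM of the 9 genes in all 3 of these libraries. The fold changes were 2.79 and 4.21, with 236 and 73 expressed genes above it. In all, 1 of the 9 genes was induced at 2 h, against 5.76% of expressed genes, and 3 at 7 h (Xbp1, Atf6 and Creb3), against 7.01%. Creb3l1 was repressed at both times, 1 of 9 genes, against 3.76% and 8.06%. The median LFC of the 9 genes was 0 and 0.33, beside −0.13 and 0 over expressed genes. The median at 7 h was that of Ern1, whose control value had been raised to 4 TPM, and with TMM factors it was 0.93.

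The 2 reading frames of Xbp1 could be told apart through the length that RSEM had used. RSEM divides a gene's expected count by the abundance-weighted length of its coding sequences to give TPM. The quotient of count and TPM was therefore calibrated in each library on genes with a single coding length (570 in MEFs and 633 in NIH3T3 cells). The median error was at most 0.06 nt, and 83.9% to 88.6% of these genes came within 3 nt of their length. For Ern1, Atf6b, Mbtps1, Mbtps2, Creb3 and Creb3l1 the length was the same within 0.42% in all 13 libraries, and for Atf6 within 2.3%. For Creb3l2 it varied from 1328 to 1566 nt.

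The length of Xbp1 was 1093.2 nt in the WT control and 1095.0 nt in the PERK −/− control, and 1111.5 to 1116.0 nt in the 8 MEF libraries with Tg. In NIH3T3 cells it was 1006.9 nt in the control, 1085.1 nt at 2 h and 1114.0 nt at 7 h. At the precision given, no library passed the 1116 nt of the spliced frame. The rounding range reached 1117.0 nt in WT MEFs at 2 h, and the shares below were capped at 100%. If only the 2 frames entered, the spliced one made up 92.7% of Xbp1 TPM in the WT control and 93.3% in the PERK −/− control. It made up 98.6% to 100% in the treated WT libraries and 99.1% to 100% in the treated PERK −/− libraries. In NIH3T3 cells the share was 65.02% without Tg, 90.1% at 2 h and 99.4% at 7 h. Controls thus had the lowest share within each genotype or line. In MEFs of both genotypes the step rests on few reads, since the controls had 379 (WT) and 252 (PERK −/−) Xbp1 counts in all.

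On this basis the spliced frame in NIH3T3 cells went from 67.7 TPM to 261 and 436 TPM, 3.86-fold and 6.44-fold. The unspliced frame went from 36.4 to 28.7 and 2.87 TPM. In WT MEFs the spliced frame went from 27.1 TPM to 189.8 TPM at 2 h (7.02-fold) and 172.5 TPM at 8 h (6.38-fold). In PERK −/− MEFs it went from 32.1 to 76.0 and 102 TPM, 2.36-fold and 3.18-fold. The unspliced frame had 2.13 and 2.32 TPM in the 2 MEF controls. These shares are RSEM's division of reads by sequence, since most of the unspliced frame is also present in the spliced mRNA, and they come with a rounding range but no interval for the division itself.

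**Figure D2:**
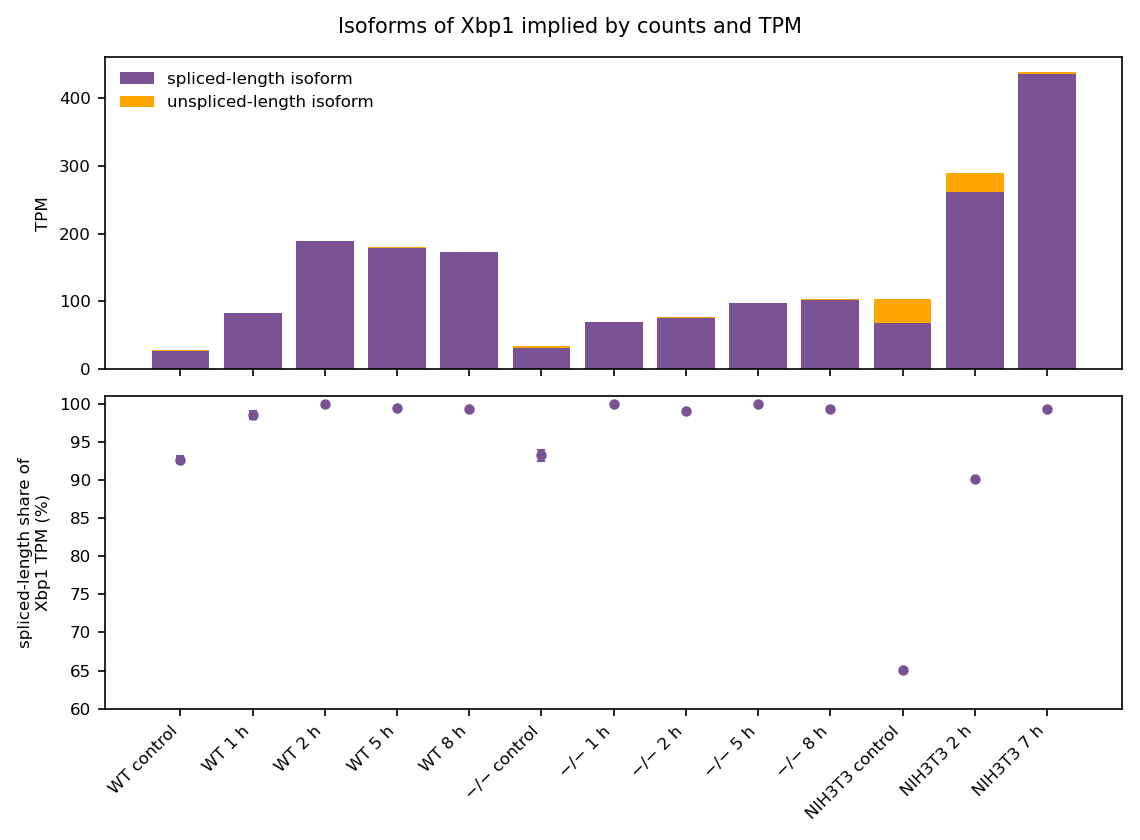
Upper panel, TPM of Xbp1 in each of the 13 libraries (bars from 0), divided into the spliced-length (purple) and unspliced-length (orange) frame. Lower panel, share of the spliced-length frame in percent (axis from 60), with bars for the rounding of the deposited values; the NIH3T3 control stands at 65.02% and the treated MEF libraries at 98.6% or above.

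Ern1, the nuclease upstream of Xbp1, had the lowest TPM of the 9 genes in all 13 libraries. WT MEFs had 5.08 TPM of it in the control and 5.34, 8.19, 7.69 and 7.86 TPM over the 4 times of Tg. PERK −/− MEFs had 4.64 TPM in the control, then 4.07, 3.38, 5.77 and 6.86 TPM. WT values from 2 h on stood above the control by 1.5-fold to 1.6-fold, under the 2-fold limit, and PERK −/− values were below their control at 1 h and 2 h. The difference of the LFC between the genotypes was −1.08 at 2 h (−1.63 to −0.53), and its intervals at 1 h, 5 h and 8 h included 0. In NIH3T3 cells Ern1 had 2.14 TPM (80 counts), 2.03 (19 counts) and 5.02 TPM (97 counts). The floor of 4 TPM hides most of the last step, which was an LFC of 1.23 in counts per library total (0.79 to 1.67).

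Set against each other within a library, where no scaling between libraries enters, Xbp1 had 0.883 times the TPM of Atf6 in the WT control and 4.35 times at 2 h of Tg. In the PERK −/− control the ratio was 1.23, and it lay between 2.46 and 2.78 at the 4 times with Tg. In NIH3T3 cells it was 2.06, 3.81 and 2.56. All 3 controls had the lowest ratio of their genotype or line. Late in the treatment the ratio was 2.78 in WT (2.60 to 2.98) and 2.46 in PERK −/− MEFs (2.22 to 2.74) at 8 h, with intervals that overlap.

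Atf6, the ER-membrane sensor and transcription factor, was higher late in the treatment. WT MEFs had 33.0 TPM of it in the control, then 39.0, 43.6, 67.0 and 62.4 TPM. PERK −/− MEFs had 27.9 TPM, then 26.1, 28.3, 35.2 and 41.8 TPM. The 2 late WT libraries stood above all 8 others, and the PERK −/− values passed the control by more than 0.3 in LFC at 5 h and 8 h only. At 5 h Atf6 was 2.03-fold up in WT, close to the limit, and with TMM or DESeq2 scaling its LFC was 0.95. The difference of the LFC between the genotypes was −0.72 (−0.96 to −0.49) at 5 h. By 8 h it was −0.39 (−0.61 to −0.17). In NIH3T3 cells Atf6 had 50.5, 76.1 and 171 TPM and was 3.39-fold up at 7 h.

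Its paralog Atf6b, cut by the same proteases and a weaker activator than ATF6, had another course. WT MEFs had 22.6 TPM in the control, then 20.3, 26, 26.8 and 32.8 TPM. PERK −/− MEFs had 28.7 TPM, then 17.9, 12.6, 21.4 and 31.5 TPM. The PERK −/− values were 0.438 times the control at 2 h and slightly above it by 8 h, while the WT value at 2 h was above its control. The difference of the LFC between the genotypes was −0.51, −1.33, −0.63 and −0.42 over the 4 times, with all 4 intervals below 0, and that of 2 h ran from −1.65 to −1.0. In NIH3T3 cells Atf6b had 56.5 TPM in the control and 34.2 and 39.8 TPM with Tg.

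The ratio of Atf6 to Atf6b within a library was 1.46 in the WT control and 0.973 in the PERK −/− control. With Tg the WT ratios lay from 1.68 to 2.5 and those of PERK −/− MEFs from 1.33 to 2.25. In NIH3T3 cells it went from 0.893 in the control to 2.22 at 2 h and 4.29 at 7 h. Every treated library thus had a higher ratio than its control. The WT intervals at 1 h (1.58 to 2.34) and 2 h (1.355 to 2.08) overlapped that of the WT control (1.31 to 1.63). In PERK −/− MEFs the ratio was highest at 2 h, when Atf6b was lowest, and in WT MEFs at 5 h, when Atf6 was highest.

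**Figure D3:**
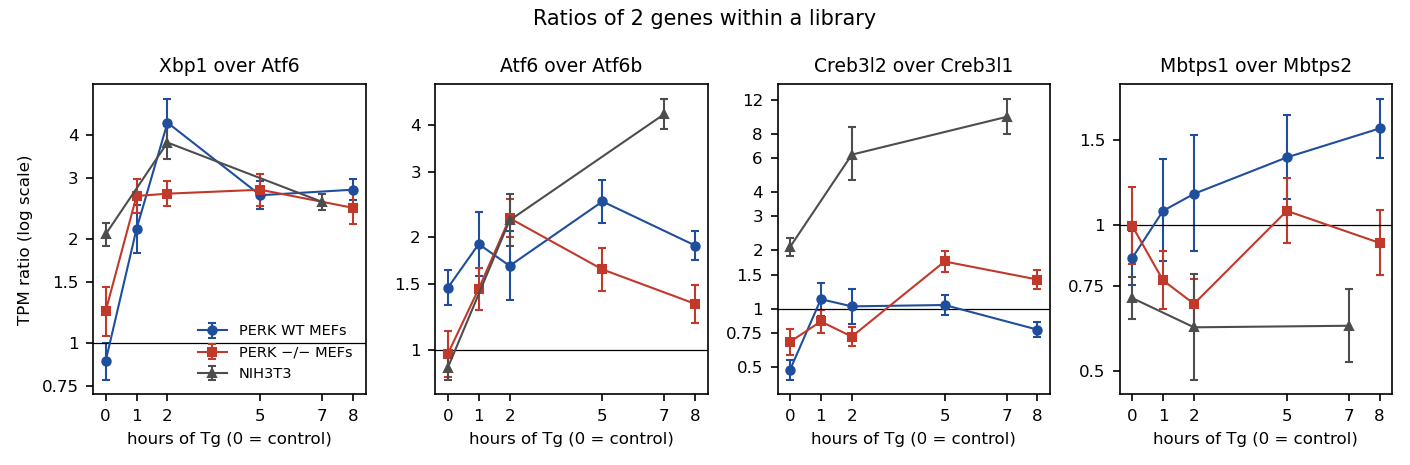
Ratio of the TPM of 2 genes within the same library (log scale) against hours of Tg for PERK WT MEFs (blue), PERK −/− MEFs (red) and NIH3T3 cells (grey), with 95% intervals from the 2 counts. Xbp1 over Atf6 and Atf6 over Atf6b were lowest in the controls, and Creb3l2 over Creb3l1 reached 9.81 in NIH3T3 cells.

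Neither protease was called in any of the 10 comparisons with Tg. Mbtps1, which makes the first cut, had 17.3 TPM in the WT control and 18.7, 22.3, 21.5 and 23.4 TPM with Tg. It had 16.4, 16.2, 13.4, 19.6 and 20.1 TPM in PERK −/− MEFs. The genotypes differed beyond counting error at 2 h (−0.58, −0.88 to −0.29), and the intervals at the other 3 times included 0.

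Mbtps2, which makes the second cut inside the membrane, had 20.2 TPM in the WT control and 17.4, 19.2, 15.6 and 14.8 with Tg. In PERK −/− MEFs the control had 16.4 TPM and the treated libraries 21.1, 19.5, 18.3 and 21.9 TPM. All 4 treated WT values were below their control and all 4 treated PERK −/− values above theirs, but the intervals of the change included 0 in WT at 1 h and 2 h and in PERK −/− MEFs at 5 h. The LFC differed by 0.60 at 1 h (0.19 to 1.01), 0.57 at 5 h (0.17 to 0.97) and 0.85 at 8 h (0.50 to 1.21), while the interval at 2 h included 0. Mbtps2 was the member with the largest positive difference between the genotypes at each of the 4 times. In NIH3T3 cells both proteases were lower with Tg, Mbtps1 with 24.3, 14.7 and 14.8 TPM and Mbtps2 with 34.3, 23.9 and 23.8 TPM. The LFCs at 7 h were −0.72 and −0.53, and all 4 intervals lay below 0. The ratio of Mbtps1 to Mbtps2 went from 0.855 in the WT control to 1.58 at 8 h (1.38 to 1.82). It was 0.997 and 0.919 in PERK −/− MEFs at the same times.

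Creb3, a Golgi and ER membrane factor that the same proteases cut, was induced early in WT MEFs. It went from 39.7 TPM to 80.8, 86.7, 102 and 92.2 TPM over the 4 times. Without PERK it went from 50.8 TPM to 43.2, 42.3, 61.7 and 81.9 TPM. The treated WT values were at least 2-fold up at all 4 times, whereas the PERK −/− values were below the control early and above it late. At 1 h the WT change was 2.03-fold, and with TMM or DESeq2 scaling its LFC was 0.93 and 0.99. Counts thinned to the smallest library brought it under 2-fold at 1 h and 2 h (0.81 and 0.91). Creb3 had the largest negative difference between the genotypes of the 9 genes at 1 h (−1.24, −1.52 to −0.97). It was −1.32 and −1.04 at the next 2 times and narrowed to −0.54 (−0.77 to −0.30) by 8 h. In NIH3T3 cells Creb3 had 44.3, 71.1 and 106 TPM, a 2.39-fold change at 7 h.

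Creb3l2, a factor known from cartilage for secretory pathway genes, was induced at 5 h in both genotypes, and at 8 h in PERK −/− MEFs. It had 25.3 TPM in the WT control, then 38.4, 48.4, 61.7 and 49.7 TPM. PERK −/− MEFs had 25.1 TPM, then 27.3, 23.2, 52.0 and 63.2 TPM. The controls were alike, the early treated values of WT stood above those of PERK −/− MEFs, and at 8 h the order was turned. In counts per library total the difference of the LFC was −0.85 and −1.14 at the early times, the latter with an interval of −1.47 to −0.81, and in TPM it was −0.48 and −1.05. It was −0.32 (−0.60 to −0.04) at 5 h, and 0.20 at 8 h with an interval that included 0. The coding length of Creb3l2 was 1328.6 nt in the WT control and 1473.5 to 1499.9 nt with Tg. Its WT LFC at 8 h was therefore 0.97 for TPM but 1.14 for library-scaled counts, and at 2 h 0.93 and 1.10. By counts it thus passed 2-fold in WT MEFs at 2 h, 5 h (1.46) and 8 h. In NIH3T3 cells it had 53.1, 61.9 and 96.1 TPM.

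Creb3l1, a factor for collagen secretion in fibroblasts and bone, was not induced in any library. It had 52.8 TPM in the WT control, then 34.4, 47.2, 59.2 and 63.9 TPM. PERK −/− MEFs had 37.3 TPM, then 31.8, 32.4, 29.7 and 44.7 TPM. Among WT libraries it was lowest at 1 h, with an LFC of −0.60 in counts per library total (−0.83 to −0.38). In NIH3T3 cells it was repressed, from 25.6 TPM (494 counts) to 9.89 TPM (48 counts) at 2 h and 9.79 TPM (98 counts) at 7 h. Creb3l2 had 0.480 times the TPM of Creb3l1 in the WT control, then 1.12, 1.03, 1.04 and 0.778 times at 1, 2, 5 and 8 h. The WT intervals at 1, 2 and 5 h included 1. In the PERK −/− control it had 0.672 times, then 0.857, 0.716, 1.75 and 1.41 times. In NIH3T3 cells the ratio was 2.08, 6.26 and 9.81.

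**Figure D4:**
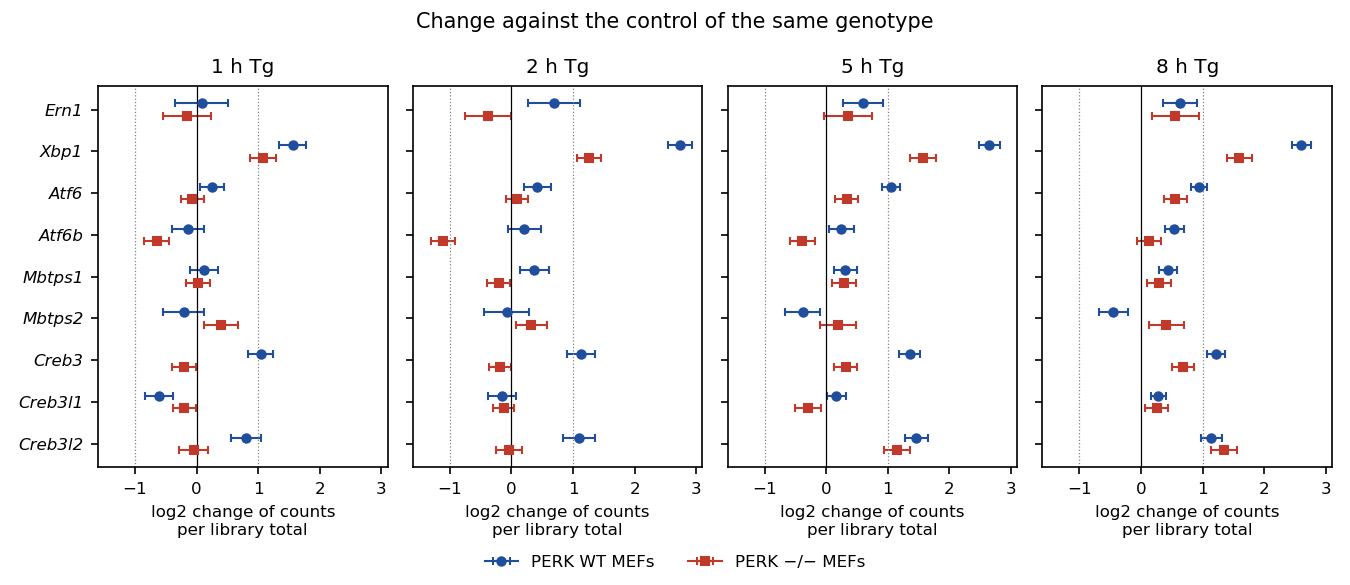
LFC of expected counts per library total against the control of the same genotype (x axes) for the 9 genes (rows) at 4 times of Tg, in PERK WT (blue circles) and PERK −/− MEFs (red squares). Bars are 95% exact conditional intervals for counting error and dotted lines mark 2-fold; at 2 h, 7 of 9 differences between the genotypes are below 0 with their intervals, against 36.3% of expressed genes.

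Over the 9 genes, the LFC was lower in PERK −/− than in WT MEFs beyond counting error for 5, 7, 6 and 4 genes after 1, 2, 5 and 8 h. Over all expressed genes with a count in the 4 libraries concerned, the share with an interval below 0 was 33.6%, 36.3%, 33.3% and 30.9%, so that such a difference was common. The LFC was higher beyond counting error for 2, 0, 1 and 1 of the 9 genes, against 21.8%, 22.2%, 26.4% and 27.7% of expressed genes. The median difference of the 9 genes was −0.32, −1.08, −0.46 and −0.15 in counts per library total, beside −0.14, −0.18, −0.08 and −0.03 over expressed genes. The median difference was thus widest at 2 h and narrowest at 8 h. Between the 5 h and 8 h libraries of WT MEFs, which are neighbours in time and not replicates, the 9 genes differed by a median of 0.11 and at most 0.31 in LFC. The 2 genotypes share no library, but all 4 differences of a gene share its 2 controls.

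Genes that act next to these 9 were described from lists chosen from general knowledge. Of 11 partners and regulators of IRE1, which include the tRNA ligase Rtcb that joins the cut ends of Xbp1 mRNA and the adaptor Traf2, 9 were expressed in each table. In each of the 10 comparisons with Tg, 0 of them changed 2-fold. Of expressed genes, 0.623% to 7.01% were induced and 2.29% to 8.06% repressed in these comparisons. With shares this low, 0 of 9 does not set these genes apart. At 8 h in WT MEFs the LFCs farthest from 0 were 0.72 for Pdia6, an ER oxidoreductase, 0.69 for Traf2 and −0.52 for the translocon component Sec63. Traf2 had an LFC of −0.12 in PERK −/− MEFs at that time.

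Of 8 ATF6 partners, 2 were induced at 8 h in WT MEFs and 1 in PERK −/− MEFs, against 6.45% and 3.28% of expressed genes. Hspa5, the chaperone BiP that holds ATF6 in the ER, went from 1357 to 7149 TPM in WT MEFs (LFC 2.40), and its LFC was 1.41 in PERK −/− MEFs. Wfs1, an ER membrane protein that takes part in ATF6 turnover, went from 5.65 to 33.1 TPM in WT MEFs (LFC 2.55). In PERK −/− MEFs it was repressed at 2 h (LFC −1.04) and its LFC was 0.90 at 8 h. The other 6 had LFCs of −0.28 to 0.30 at 8 h in WT MEFs. In NIH3T3 cells at 7 h Hspa5 and Wfs1 were induced (2.62 and 1.18), and Nfya, a subunit of the NF-Y factor that binds DNA with ATF6, was repressed (−1.03).

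Of the other substrates and cofactors of the proteases, 6 of 9 were expressed, and 0 were induced in any comparison. The induced share of expressed genes was 0.623% to 7.01%, so 0 of 6 does not set them apart. In WT MEFs 5 of the 6 lay below the control at each of the 4 times. The median LFC of the 6 was −0.25, −0.65, −0.57 and −0.57 there, beside 0, 0, 0.00 and 0.01 over expressed genes. In PERK −/− MEFs the medians were −0.56, −0.71, −0.04 and 0.45, beside −0.06, −0.11, 0 and 0.04. In NIH3T3 cells they were −0.56 and −0.46, beside −0.13 and 0. In PERK −/− MEFs at 2 h, 2 of the 6 were repressed, against 5.78% of expressed genes. They were Srebf1 and Srebf2, the precursors of the sterol and lipid factors that the proteases also release (LFCs of −1.05 and −1.23). Srebf2 was also repressed at 1 h (−1.005), 1 of 6 against 3.38%. At 8 h the LFCs of Srebf1 and Srebf2 were 0.55 and 0.36. In WT MEFs Srebf1 had an LFC of 0.60 at 2 h and 0.66 at 8 h, and Srebf2 of −0.60 at both times. In NIH3T3 cells at 7 h, 2 of 6 were repressed, against 8.06%, namely Srebf2 (−1.22) and Gnptab (−1.19). Gnptab, a site-1 protease substrate needed for lysosomal enzyme targeting, went from 8.06 to 3.98 TPM at 8 h in WT MEFs. It was the gene repressed there at 2 h and 8 h (−1.01 at both), 1 of 6 against 4.01% and 3.87%. The treated values behind these calls of Gnptab were under 4 TPM and had been raised to 4.

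Among 10 textbook XBP1 targets, 5 were induced at 8 h in WT MEFs, 2 in PERK −/− MEFs at 8 h and 3 in NIH3T3 cells at 7 h, and 0 were repressed. Of expressed genes, 6.45%, 3.28% and 7.01% were induced and 3.87%, 2.73% and 8.06% repressed in the same comparisons. The median LFCs were 1.06, 0.77 and 0.82, beside 0.01, 0.04 and 0 over expressed genes. Dnajb9, a co-chaperone of BiP, was induced in both genotypes at all 4 times, with LFCs of 1.35 at 1 h and 1.99 at 8 h in WT and 1.12 and 2.17 in PERK −/− MEFs. The COPII coat gene Sec24d had LFCs of 1.30 and 1.26 at 8 h. Edem1, which acts in the disposal of misfolded glycoproteins, had 1.54 in WT and 0.72 in PERK −/− MEFs. Sec61b, a translocon subunit, had 1.25 and 0.21, and Serp1, which stabilizes membrane proteins at the translocon, had 1.17 and 0.68. These 5 are the targets called in WT MEFs. Of the other 5, the LFC was higher in PERK −/− than in WT MEFs for Pdia6 (0.97 and 0.72), Srpr (0.88 and 0.33), Mgat2 (0.65 and −0.12) and Dnajb11 (0.25 and −0.08), and lower for Dnajc3 (0.82 and 0.95). In PERK −/− MEFs 10 of 10 targets lay above the control and in WT MEFs 8 of 10. Of expressed genes, 53.7% and 50.4% lay above it.

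Among 11 textbook ATF6 targets, 9 were induced in WT and 5 in PERK −/− MEFs at 8 h. In NIH3T3 cells at 7 h, 8 of 10 expressed ones were. The induced share of expressed genes was 6.45%, 3.28% and 7.01% in these comparisons. The median LFCs were 1.62, 0.91 and 1.66, beside 0.01, 0.04 and 0 over expressed genes. Both Hsp90b1 (0.35 in WT and 0.91 in PERK −/− MEFs at 8 h) and Calr (−0.08 and 0.17), chaperones of the ER lumen, had higher LFCs without PERK, and 11 of 11 targets lay above the control in PERK −/− and 10 of 11 in WT MEFs. In WT MEFs at 1 h, 2 of 11 were induced, Herpud1 (2.07) and Sdf2l1 (1.22), against 0 in PERK −/− MEFs. The induced share of expressed genes at 1 h was 4.33% in WT and 0.719% in PERK −/− MEFs. At 8 h the LFCs of Herpud1, which acts in ER-associated degradation, were 4.38 in WT and 1.23 in PERK −/− MEFs, and those of the chaperone complex gene Sdf2l1 were 3.55 and 1.98. Those of the secreted protein genes Manf and Creld2 lay closer, with 1.55 and 1.34 for Manf and 1.62 and 1.21 for Creld2. Derl3, listed at 0 in the WT control, had 12.9 TPM at 8 h.

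Of 5 textbook targets of the CREB3 family, Sec24d was the one induced in MEFs. It was called in WT MEFs at 5 h and 8 h and in PERK −/− MEFs at 8 h. Of expressed genes, 5.86%, 6.45% and 3.28% were induced there. The collagen genes Col1a1 and Col1a2, listed as targets of CREB3L1, had LFCs of −0.46 and −0.10 at 8 h in WT MEFs. They were repressed in PERK −/− MEFs at 2 h (−1.72 and −1.37) and in NIH3T3 cells at 7 h (−1.47 and −1.14). Col1a1 was also repressed in PERK −/− MEFs at 1 h (−1.18) and 5 h (−1.01) and in NIH3T3 cells at 2 h (−1.27). Lists share genes, since Hspa5 is both a partner and a target of ATF6, Pdia6 is both an IRE1 regulator and an XBP1 target, and Sec24d is on 2 target lists.

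**Figure D5:**
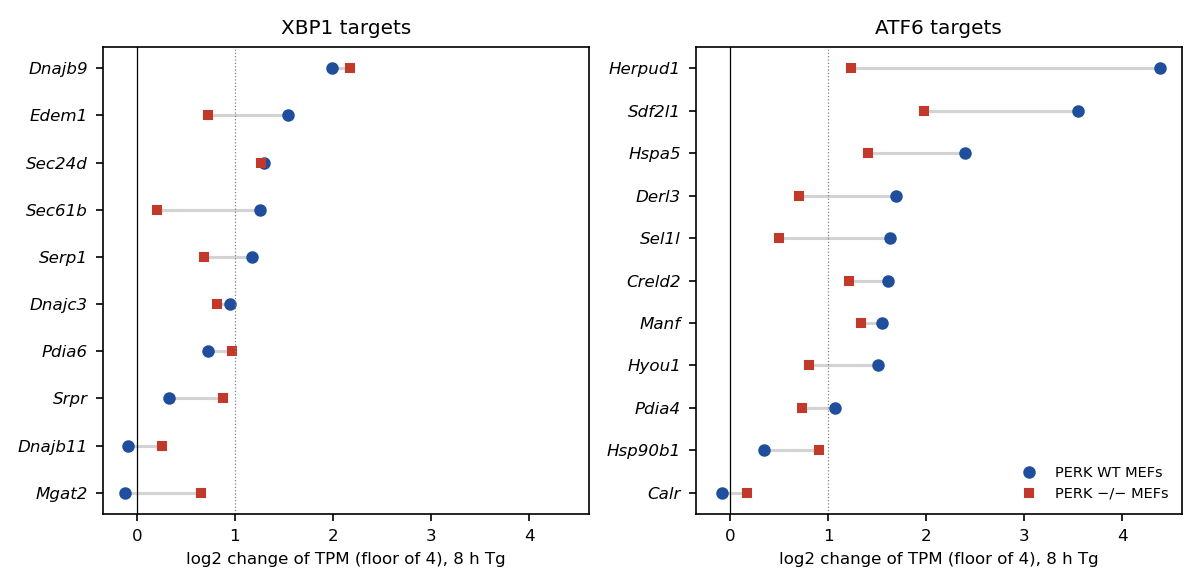
LFC of TPM (values under 4 raised to 4) at 8 h of Tg in PERK WT (blue circles) and PERK −/− MEFs (red squares) for 10 textbook XBP1 targets (left) and 11 textbook ATF6 targets (right), 1 library per condition and the dotted line at 2-fold. Herpud1 lies at 4.38 in WT and 1.23 in PERK −/− MEFs, and Dnajb9 at 1.99 and 2.17.

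For 4 of the 9 genes, the genes were sought whose log2 TPM followed them most closely over the 10 MEF libraries, among 5992 genes with a mean of at least 16 TPM (5993 for Ern1). For Xbp1 these were Nedd9 (Pearson r = 0.960), Herpud1 (0.946) and Selk (0.941). For Atf6 they were Psat1, a serine synthesis enzyme (0.969), Rhbdd1 (0.966) and Prrc1 (0.963). For Ern1 they were Mdh2 (0.966), Cyth2 (0.965) and Sap130 (0.964), and for Creb3l2 Psmb3 (0.967), Sec24d (0.966) and Armcx3 (0.952). The libraries share time courses and 2 controls, so these values describe likeness of course only. The matches of Xbp1 had LFCs at 8 h of 1.38 for Nedd9, 4.38 for Herpud1 and 1.99 for Selk in WT, and 0.71, 1.23 and 1.02 in PERK −/− MEFs. These libraries were among the 10 by which the matches were picked. Smaller LFCs in PERK −/− MEFs, as for Xbp1, thus follow from the choice and are no separate result.

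Promoters of 7 of the 9 genes, from 250 bases before to 50 after the start in RefSeq (GRCm38.p6), were searched on both strands for UPR elements. Those of Atf6 and Creb3l1 were not at hand and were not searched. The ER stress element (ERSE, CCAAT and CCACG with 9 bases between them) was in 0 of 7 and in 0.119% of 32851 promoters, and its variant ERSE-II (ATTGG and CCACG with 1 base between them) in 0 of 7 and 0.0365%. The UPR element core TGACGTGG was in 0 of 7 and 0.676%, and the cyclic AMP element TGACGTCA in 0 of 7 and 1.79%. With shares this low, 0 of 7 does not set these genes apart. Elements outside the window were not searched.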

How the data were processed

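The 13 ribosome footprint libraries were grouped by their labels, 1 for each condition. Cells were flash frozen without cycloheximide. The authors kept footprints of 22 to 34 nt, filtered rRNA and tRNA with STAR, and aligned to RefSeq coding sequences of mm10 with Bowtie2 (30 nt clipped at each end, transcripts under 100 nt left out). The deposited expected counts are RSEM estimates per gene in whole numbers, not scaled between libraries. The deposited TPM values were scaled by RSEM within each library per coding length, which removes any global change of translation. Tool versions are not given in the sources used here.

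Genes whose mean TPM reached 2 were kept, TPM under 4 were raised to 4, and 2-fold against the own control was the limit for a call, after the study's methods. With 1 library per condition no test was made. Intervals have 95% confidence and cover counting error only. They are exact Poisson intervals for a count, exact conditional (Clopper-Pearson) intervals for a ratio of counts per library total, and normal intervals from 4 counts for a difference between genotypes. A count of 0 would allow up to 3 counts, which is 1.19 CPM in the smallest MEF library. Coding length was implied from count and TPM, calibrated by a line per library on genes with at least 200 counts and 1 coding length in a GENCODE annotation of GRCm38. Procedures were tested on simulated data.

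Results were recomputed with TMM factors, a floor of 1 TPM, a pseudocount of 1 (TPM or CPM), DESeq2 size factors, thinned counts, other limits on mean TPM (5 or none), a 1.5-fold threshold, and, added after seeing the data, TPM for the differences between genotypes. All 9 genes were named, with Eif2ak3 as label check, listed genes changed 2-fold or among the 3 with the largest change at 8 h in WT, and the 3 closest genes to 4 members. The members and lists were chosen with earlier results of these data known. Size factors came from DESeq2 1.42.0 and TMM factors from edgeR 4.0.16 (R 4.3.3). The other steps ran in Python 3.11.15 (scipy 1.17.1, pandas 2.3.3, numpy 2.4.6, matplotlib 3.10.9).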

Additional observations from a re-analysis of the deposited data

Results flagged for a closer look

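The TPM of Mbtps2 was below the control in all 4 treated PERK WT libraries and above it in all 4 treated PERK −/− libraries, with median LFCs of −0.30 and 0.31. The difference was not tested, since each condition was 1 library and the 4 times of a genotype share 1 control. The counting intervals included 0 in WT at 1 h and 2 h and in PERK −/− MEFs at 5 h. With counts thinned to the smallest library, the WT LFCs of Mbtps2 were 0.04, 0.15, −0.02 and −0.34 after 1, 2, 5 and 8 h, so that only the last stayed clearly below the control.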

How the results depend on the processing

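Each called change kept its sign under every alternative. Near the 2-fold limit the counts of the 9 genes moved. In WT MEFs at 1 h, TMM factors, DESeq2 size factors and thinned counts each left 1 gene induced (Creb3 lost), and a 1.5-fold threshold gave 1 repressed. At 1.5-fold, 4 genes were induced in WT at 2 h and 5 at 8 h, and thinned counts gave 4 at 8 h. In PERK −/− MEFs at 1 h, a pseudocount of 1 TPM and thinned counts left 0 induced (Xbp1, LFCs of 0.99 and 0.97), and 1.5-fold gave 1 repressed. At 2 h, TMM factors and DESeq2 size factors left 0 repressed. In NIH3T3 cells, 1.5-fold gave 3 induced and 3 repressed at 2 h and 2 repressed at 7 h. The floor of 1 TPM made Ern1 induced in NIH3T3 cells at 7 h (LFC 1.23). TMM factors moved the median of expressed genes in PERK −/− MEFs at 2 h from −0.11 to 0.03. Creb3l2 in WT MEFs at 8 h passed 2-fold with TMM factors (LFC 1.02) and DESeq2 size factors (1.01). At 2 h it did so with DESeq2 size factors (1.02) and thinned counts (1.16), but not with TMM factors (0.997). The cause was not tested beyond what each setting does by construction. Differences between genotypes moved by at most 0.41, and at most 3 of 36 changed sign under any 1 setting. Implied coding lengths moved by at most 0.3 nt with 1000 counts as the minimum. Counting error is widest for Ern1, with 19 counts in NIH3T3 cells at 2 h. No paired analysis was possible because each condition was 1 library without a replicate number, and no replicate could be left out.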
